A study of Mus musculus with 20 samples.

Results

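The comparison described here is between control spleen libraries whose ID begins with S and control spleen libraries whose ID is a plain number. Of 20 libraries in the series, 11 are control libraries: 3 carry the IDs S1, S2 and S6 and 8 carry the IDs 1 to 8. They were chosen by the form of the ID in the titles, not by any measured value. All came from whole spleen of mice aged 4 weeks labelled as control, and RNA was taken with a lipid tissue kit and DNase and sequenced on an Illumina NovaSeq. The other 9 libraries came from mice bred on a gluten-free diet, 5 with S IDs and 4 with plain IDs, and enter only a side comparison. The meaning of the letter S, the strain and the sex are not stated, so what sets the S libraries apart from the others cannot be told apart from any cohort, litter, day or handling that the letter may stand for. The labels do not say that each ID is a separate mouse, so p-values measure the spread between these libraries, which may be technical.

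The spleen filters blood, stores platelets and houses B and T lymphocytes, and in young mice its red pulp also holds megakaryocytes and red cell precursors. Megakaryocytes are large cells that shed platelets, the cell fragments that stop bleeding, and platelets carry RNA from their parent cell. Whole spleen RNA therefore contains transcripts of megakaryocytes and of stored platelets. In such bulk RNA, more cells of a type and more RNA per cell cannot be told apart.

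Library totals of the 11 control libraries ran from 13626021 counts in control 6 to 19719591 in control 1, and the S libraries held 17824287, 17817973 and 15235671 counts. B cell identity genes, which mark spleen, averaged between 6.99 and 8.30 log2 CPM in every library, and Xist lay between 901 and 1376 CPM (counts scaled to a common library total, with TMM to correct for a few dominant genes). In a principal component plot the first component (26.3% of the variance) set S1 and S2 apart from the others, and the second (19.9%) had S6, control 8 and control 5 at its low end. Control 5, although it carries a plain ID, lay with the S libraries in rRNA-like and mitochondrial genes. Each main result is therefore also given without control 5. As control 5 was picked from those values, leaving it out widens the difference in these genes, and such results only describe them. S6 had more T cell RNA than the other 10 libraries: Cd3e, a chain of the T cell receptor complex, stood at 63.6 CPM against 16.3 and 17.1 in S1 and S2 and 19 to 39.6 in the plain libraries. Foxp3, the regulator of regulatory T cells, stood at 17.9 CPM in S6 against at most 10.7 in the others. Control 4 held 118 CPM of the pancreatic enzyme gene Cela1, against 5.58 to 13.4 in the others.

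Over all genes, mean RNA of megakaryocyte and platelet genes was higher in the S libraries, mainly through S1 and S2 and little through S6. Mean RNA of a set of noncoding and rRNA-like genes was lower in the S libraries. Of 17114 genes tested with edgeR's quasi-likelihood test, 439 (2.57%) passed a Benjamini-Hochberg adjusted p of 0.05. Of these, 325 (1.9%) were higher in S and 114 (0.666%) were lower. At an unadjusted p under 0.05 there were 2792 genes, where 856 would be expected by chance. Without control 5, 656 of 16984 genes (3.86%) passed, 407 higher (2.4%) and 249 lower (1.47%), and 424 genes passed in both fits, none with opposite sign. The calls need S1 and S2: without S1 or without S2, 0 genes passed in edgeR (1936 and 1972 at an unadjusted p under 0.05, and 240 and 216 adjusted calls in DESeq2), whereas without S6 966 passed. Of the plain libraries, leaving out control 2, 3 or 7 left 248, 271 and 212 calls, and leaving out any of controls 1 to 4, 6 or 7 left 35 to 64 lower calls. Without control 8, 557 genes passed, 207 of them lower.

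The higher and lower calls differed in kind. Protein-coding genes made up 313 of the 325 higher calls, 2.25% of the protein-coding genes tested, but 42 of the 114 lower calls, 0.301% of the same 13934 genes. The higher calls followed S1 and S2: in 323 of 325, both lay above every plain library, and S6 did so too in 164. S6 lay below both S1 and S2 in 290. Among the lower calls, all 3 S libraries lay below every plain library in 85 of 114. Across all genes tested, 2.6% had every S library above every plain library and 1.86% had every S library below, or 4.01% and 3.63% when control 5 was left aside. These counts describe calls made from the same values.

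**Figure D1:**
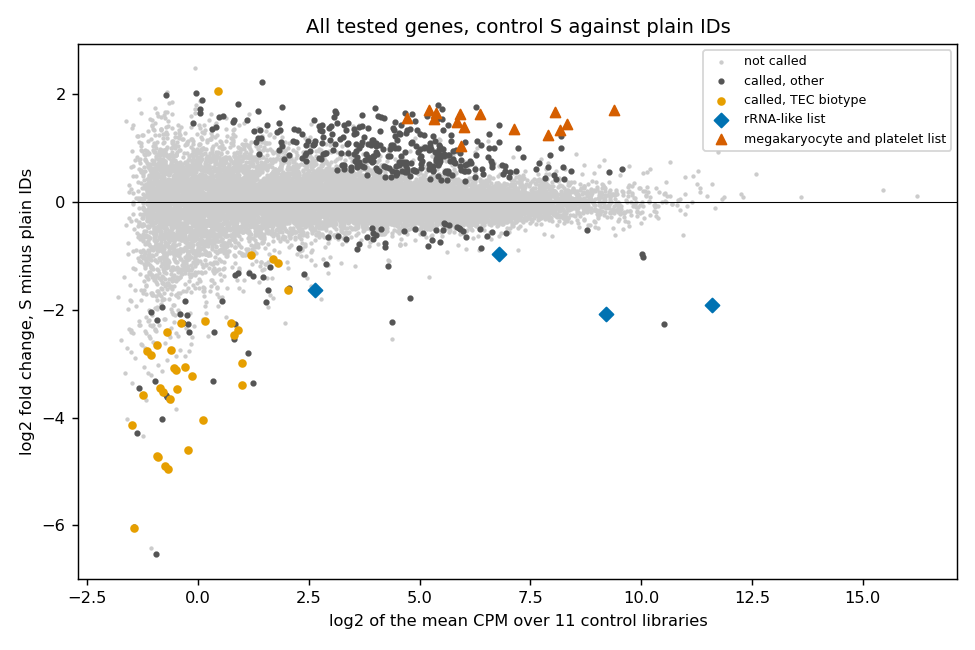
Each point is 1 of 17114 tested genes, with the log2 of its mean CPM over the 11 control libraries on the x axis and its log2 fold change, S minus plain, on the y axis. Red-orange triangles are the 15 tested megakaryocyte and platelet genes, all between 1.03 and 1.71, blue diamonds the 4 rRNA-like genes, all below 0, yellow-orange points called genes of the TEC biotype (transcribed loci without a settled gene model), dark points other called genes and grey points genes not called.

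The megakaryocyte and platelet list was higher in S on average, mainly through S1 and S2. It was chosen with earlier results of these data known, so the counts below describe it and are no independent support. All 15 tested members of the 16 in the list passed with 11 libraries, at a background of 1.9% of all genes called higher, and all 15 passed without control 5. Their median log2 fold change was 1.53, and 1.64 without control 5, beside a median of 0.00 over all genes. The libraries were not alike: the median member stood at 3.66 times the plain mean in S1, at 3.42 times in S2 and at 1.26 times in S6. S1 and S2 lay above every plain library in all 15 genes, and S6 in 2. Without S1 the median was 1.27 and without S2 1.28, with 0 of 15 called in edgeR (9 and 12 in DESeq2), and without S6 it was 1.87 with 15 called. Control 5 was above the other 7 plain libraries in 13 of the 15. The shares of all genes in which control 5 or a single S library lay above the plain libraries were not counted, so these counts lack a background.

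Adhesion receptors and their subunits come first. Gp1ba (ENSMUSG00000050675, chromosome 11, 70639122 to 70642036), the platelet receptor chain that binds von Willebrand factor, lay between 14.2 and 34.8 CPM in the plain libraries (median 21.6). It stood at 93.9 CPM in S1, 96.9 in S2 and 32.8 in S6. S1 and S2 were far above all plain libraries, whereas S6 lay inside their range, below control 5. Its log2 fold change was 1.71 ± 0.27 (SE, n = 3 and 8; edgeR adjusted p = 0.00998). Gp9, its partner chain in the same complex, had the smallest change of the list, 1.03 ± 0.25 (edgeR adjusted p = 0.0449), with 120 CPM in S1, 124 in S2 and 48.0 in S6 against 27.6 to 68.6 (median 49.4). Gp5, which joins that complex, had 1.39. Gp6, the collagen receptor of platelets, stood at 95.4, 118 and 30.6 CPM in S1, S2 and S6 against 16 to 36.5 (median 25.98), a log2 fold change of 1.64. The integrin chains of the fibrinogen receptor were also called: Itgb3 had 1.44 ± 0.25 and Itga2b 1.24 ± 0.27. Itga2b stood at 582 CPM in S1, 438 in S2 and 219 in S6, and control 5 at 296 lay above S6. Clec1b, the podoplanin receptor, had 1.53, and Treml1, a granule membrane receptor, had 1.47.

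Granule and secreted proteins were higher by a like amount. Thbs1 (ENSMUSG00000040152, chromosome 2, 118111876 to 118127133), thrombospondin of platelet alpha granules, lay between 111 and 229 CPM in the plain libraries (median 168) and at 652, 700 and 243 CPM in S1, S2 and S6. The groups did not overlap, but S6 lay just above the highest plain library, control 5. The log2 fold change was 1.67 ± 0.24 (SE, n = 3 and 8; edgeR adjusted p = 0.00998), and 1.75 without control 5. Ppbp, the platelet basic protein chemokine, lay between 226 and 584 CPM (median 424) in the plain libraries and at 1657, 1876 and 541 CPM in S1, S2 and S6, a log2 fold change of 1.70. Pf4, platelet factor 4 and its neighbour on chromosome 5, had 1.33, with 682, 636 and 218 CPM in S1, S2 and S6 against 110 to 290 CPM. Vwf, the clotting protein shared with endothelium, had 1.35, and F5, coagulation factor V, had 1.62. F5 stood at 49.4 CPM in S6, just under the highest plain library at 49.6.

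A structural gene completes the account of the list. Tubb1, the beta tubulin of the platelet ring, lay between 30 and 66.9 CPM in the plain libraries (median 52.9) and at 196, 223 and 68.97 CPM in S1, S2 and S6, without overlap. Its S mean, too, rested mainly on S1 and S2. A further 6 called genes known in platelets, chosen after their values were seen, were higher as well: Plek 1.22, Rgs18 1.59, Mpig6b 1.62, Gnaz 1.65, Pde5a 1.61 and Serpine2 1.48 on the log2 scale.

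**Figure D2:**
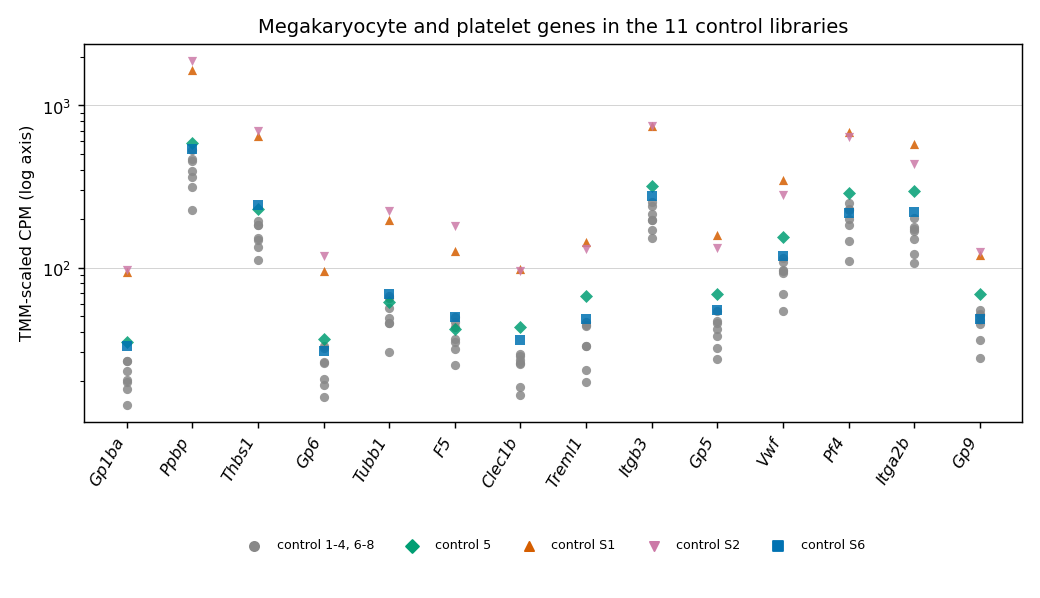
CPM on a log axis for 14 of the 15 tested megakaryocyte and platelet genes, ordered by fold change, with 1 point per control library. S1 and S2 (triangles) lie above every plain library in all 14 genes, S6 (squares) lies among or just above the plain libraries, and control 5 (green diamonds) is near the top of the plain libraries in most genes.

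The 250 bases before the start site were read for the list members with an entry in the RefSeq promoter table (GRCm38.p6), 11 of the 15 tested. They were searched on both strands for AGATAA and for its core GATAA, the letters bound by GATA factors, of which GATA1 is known to direct megakaryocyte genes. The core was added after the sequences had been read, and it contains every AGATAA match. GATAA was found in 5 of 11 promoters (45.5%), and in 23.0% of all 27025 promoters, 15.0% of the 10897 of tested protein-coding genes and 17.8% of the 241 of protein-coding genes called higher. For Gp5 and Tubb1 the bases just after the RefSeq start were not found in a GENCODE transcript of the gene, and without these, 4 of 9 promoters held GATAA and 1 of 9 AGATAA. With them, AGATAA was found in 2 of 11, and in 6.18% of those of tested protein-coding genes. Of the other motifs searched, TTTGAA was found in 3 of 11 (10.8% of tested protein-coding genes), CCAAT in 2 (36.2%), CACGTG in 1 (8.09%), the interferon response motif in 1 (2.83%) and TTNNGCAA in 1 (7.52%). CTTCCG (24.0%), TTTCCCGC (1.72%) and TTTGGCGC (0.771%) were found in 0 of 11. A match is only a description of these letters. The promoters of Gp1ba (chr11:70638872-70639121, plus strand) and Gp6 (chr7:4397745-4397994, minus strand) are shown as members with a match, and that of Ppbp (chr5:90768268-90768517, plus strand) as a strongly changed member with none. Capitals mark GATAA or its reverse complement TTATC.
Gp1ba: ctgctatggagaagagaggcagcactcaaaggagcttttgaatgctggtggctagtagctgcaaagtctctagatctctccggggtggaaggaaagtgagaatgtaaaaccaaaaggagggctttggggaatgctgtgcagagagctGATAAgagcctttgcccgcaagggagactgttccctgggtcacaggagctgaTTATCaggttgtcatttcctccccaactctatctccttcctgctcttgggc
Gp6: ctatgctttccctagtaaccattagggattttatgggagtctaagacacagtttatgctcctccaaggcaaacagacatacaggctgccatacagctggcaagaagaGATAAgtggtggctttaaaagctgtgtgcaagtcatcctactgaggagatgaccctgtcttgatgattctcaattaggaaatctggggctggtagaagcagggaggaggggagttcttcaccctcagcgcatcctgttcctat
Ppbp: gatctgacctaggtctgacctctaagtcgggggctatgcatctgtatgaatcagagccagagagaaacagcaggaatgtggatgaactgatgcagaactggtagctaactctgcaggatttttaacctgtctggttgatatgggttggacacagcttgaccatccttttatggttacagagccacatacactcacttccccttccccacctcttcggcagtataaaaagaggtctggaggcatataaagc

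Several members of other lists were called higher, among them genes that platelets or megakaryocytes are also known to express. Of all genes tested, 1.9% were called higher, so single calls describe these genes and not their lists. In the monocyte list the single call was F13a1, the clotting factor XIII A chain (1.24). In the marginal zone B cell list it was Cd9, a tetraspanin abundant in platelets, at 154, 158 and 79.7 CPM in S1, S2 and S6 against 47.9 to 80.1 CPM. Lrrc32, which holds latent TGF-beta on regulatory T cells and platelets, had 1.26 and was the 1 call among 13 members of the regulatory T cell list. Lat, an adaptor of T cell and platelet signalling, was the 1 call among 20 T cell genes. Lat differed from the others in that S6 was highest, at 141 CPM, against 87.8 and 78.2 in S1 and S2 and 58.0 to 80.8 in the plain libraries. The T cell list as a whole summed to 1709 CPM of the library total in S6, 528 and 462 in S1 and S2 and 557 to 1200 in the plain libraries. How far the T cell RNA of S6 enters the Lat result was not tested. Meis1, a homeobox factor of stem cells and megakaryocytes, had 0.70, Esam, a junction protein of endothelium and platelets, 0.70, and Il1a, an alarmin cytokine, 1.20.

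Other calls of the lists were mostly single genes, among them 1 of 16 cholesterol synthesis genes, called higher. These too stand beside 1.9% of all genes called higher and are no results about the lists. Gbp2, an interferon-induced GTPase, stood at 46.5, 49.1 and 51.7 CPM in S1, S2 and S6 against 27.8 to 37.5 CPM, and was the 1 call among 19 interferon gamma genes. Its groups did not overlap and the 3 S libraries were alike. Pkm, a glycolytic kinase, was likewise above every plain library in all 3 S libraries, with a log2 fold change of 0.42. Gcsam, a signalling adaptor of germinal centre B cells, had 1.11, and Kdr, a VEGF receptor of endothelium, 0.56. S1 and S2 were the high libraries in these. In the B cell precursor list 2 of 10 were called, Vpreb1 (1.72), a surrogate light chain, and Cd93 (0.48). Without control 5 neither passed (edgeR adjusted p = 0.0576 and 0.0555).

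Among the 12 highest fold changes of called protein-coding genes with at least 1 CPM, 8 had a larger change than every member of the megakaryocyte and platelet list. Cyp2b10, a xenobiotic-metabolising enzyme of liver, lay between 0.649 and 2.01 CPM in the plain libraries and at 8.26, 9.08 and 1.80 CPM in S1, S2 and S6 (log2 fold change 2.22 ± 0.38). S6 fell inside the plain range. Mmrn1, multimerin of platelets and endothelium, had 1.79, Slc6a4, the serotonin transporter through which platelets take up serotonin, had 1.76, and Nlrp6, an inflammasome sensor, had 1.76. Slc6a4 stood at 208, 206 and 65.8 CPM against 28.5 to 62.3. Lgr5, a receptor of intestinal stem cells, had 1.89 and Ly6g6c had 1.82, both from under 2.2 CPM in every plain library. Pls1, an actin bundler, had 1.74, Rab27b, a granule-tethering small G protein of platelets, 1.72, Tuba8, an alpha tubulin, 1.68, and Arpp21 1.68.

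The gene with the smallest p-value did not follow S1 and S2 alone. Prelp, a proteoglycan of connective tissue, stood at 31.8, 31.5 and 30.6 CPM in S1, S2 and S6 against 13.6 to 20.2 CPM (median 14.6) in the plain libraries. The groups did not overlap and all 3 S libraries were alike, with a log2 fold change of 0.98 ± 0.13 (SE, n = 3 and 8; edgeR adjusted p = 0.00998). Of the fibroblast and smooth muscle list, 3 of 16 members were called higher, at 2.25% of all protein-coding genes tested: Dcn (0.90) and Lum (1.43), small proteoglycans of collagen matrix, and Pdgfrb (0.79), a receptor of mural cells. Lum stood at 6.05, 4.601 and 5.58 CPM against 0.864 to 3.75, without overlap, whereas Dcn in S6, at 56.7 CPM, lay within the plain range. The list's median was 0.45. Mesothelial genes of the capsule summed to 238, 200 and 140 CPM of the library total in S1, S2 and S6 and 69.4 to 188 in the plain libraries, and adipocyte genes to 133, 82.7 and 145 against 31.8 to 105. None of the 12 mesothelial or 9 adipocyte genes tested was called (medians 0.85 and 0.82). The part of capsule or fat in the connective tissue results was not tested.

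Myeloid granule genes were mostly not past the threshold. Of 10 genes in the neutrophil primary granule list, 1 was called, beside 1.9% of all genes called higher. This was Gstm1 (0.89), a glutathione transferase, with 23.7, 29.7 and 21.1 CPM in S1, S2 and S6 against 10.4 to 16.2. Mpo, myeloperoxidase, stood at 197, 168 and 96.6 CPM against 23.4 to 109 CPM. Its log2 fold change was 1.13 (edgeR adjusted p = 0.0698), and 1.25 without control 5 (edgeR adjusted p = 0.0368). The list's median was 0.95. Elane and Prtn3, serine proteases of the same granules, had 0.96 and 0.93 and were not called. S1 and S2 were again the high libraries, and S6 lay within the plain range in Mpo, Elane and Prtn3.

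The cell populations that make up most of the spleen showed few calls. Of the 19 erythroid membrane and enzyme genes, 10 haem synthesis genes, 20 DNA replication genes and 20 mitosis genes, 0 were called in edgeR with 11 libraries, and their medians lay between -0.15 and 0.05. These medians average S libraries that differed: the mean log2 CPM of the erythroid membrane list was 9.49 in S1 and 9.76 in S2 but 8.87 in S6, against 9.36 to 9.69 in the plain libraries other than control 8, at 8.78. Mitosis genes stood at 7.79, 8.11 and 7.17 in S1, S2 and S6, against 7.66 to 7.97 and 7.02 in control 8. B cell identity genes went the other way, at 7.22 and 6.99 in S1 and S2 and 8.13 in S6, against 7.27 to 7.79 and 8.30 in control 8. S6 thus lay near control 8 in these lists and apart from S1 and S2. The 15 B cell identity genes (median -0.12), 10 naive T cell genes (0.11) and 16 red pulp and marginal zone macrophage genes (0.06) also had 0 calls. Type I interferon response genes had 0 of 18 and cytosolic ribosomal protein genes 0 of 28 (median -0.19). Without control 5, 3 of those 28 were called lower (1.47% of all genes), and in 8 of the 28 every S library lay below every plain library, as in 1.86% of all genes. The 13 tested genes of the coeliac and gluten list had 0 calls (median 0.10). A missed call does not show that levels were alike: in simulated data of this design, 22% of genes changed 1.5-fold and 68% of genes changed 2-fold were recovered.

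**Figure D3:**
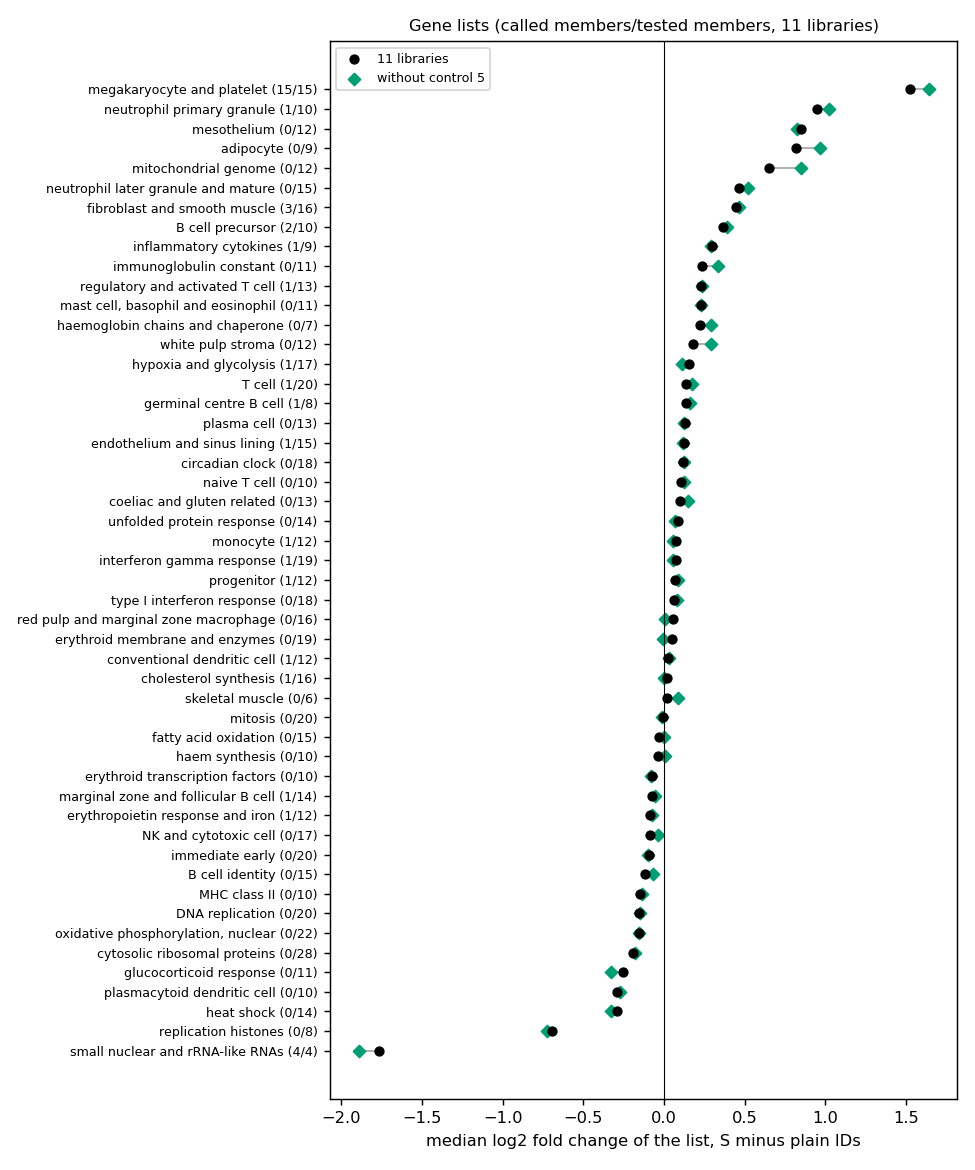
Median log2 fold change, S minus plain, of each gene list with at least 4 tested members, with 11 libraries (black) and without control 5 (green), and the called and tested members in brackets. The megakaryocyte and platelet list lies at 1.53 and the small nuclear and rRNA-like list at -1.77, and the mitochondrial genome list moves from 0.65 to 0.85 without control 5.

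Lower in S were RNAs that do not code for protein. Of the 114 lower calls, 72 were not protein-coding, and 33 carried the biotype TEC. TEC genes made up 28.9% of lower calls and 2.80% of genes tested, so that 6.89% of the 479 tested TEC genes were called lower. Without control 5, 69 TEC genes were called lower. Most lay within other genes: 29 of the 33 (87.9%) sat inside a protein-coding gene on the same strand, as did 262 of all 479 (54.7%), so reads from unspliced RNA of the host gene cannot be told apart from theirs. Gm45206, inside Sema4b on chromosome 7 (80209394 to 80211678), averaged 2.60 CPM in plain and 0.322 in S libraries, with 0.566 in control 5. Gm45477, inside Gatad2b on chromosome 3, averaged 2.64 and 0.241 CPM. Such levels are low, and the folds of these genes depend on few counts. Plain libraries alone could carry a gene past the filter, as for Gm48478, at 0 CPM in S and 0.503 in plain libraries. The share of TEC genes called lower is therefore only a description. With a mean of at least 1 CPM required, 66 genes of all biotypes were called lower. TEC genes in all summed to 825, 846 and 821 CPM in S1, S2 and S6, to 872 in control 5 and to 878 to 1062 in the other plain libraries.

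The list of small nuclear and rRNA-like RNAs was lower in all 4 tested members of 11 in the list, with a median of -1.77, and -1.89 without control 5, at a background of 0.666% of all genes called lower. This list, too, was chosen with earlier results of these data known, so the count is a description. CT010467.1 (ENSMUSG00000106106, chromosome 17, 39846353 to 39848827), an rRNA gene fragment, stood at 1715, 773 and 618 CPM in S1, S2 and S6. The plain libraries other than control 5 lay between 3838 and 4977 CPM, and control 5 at 1191. Control 5 thus lay below S1 and far below the other 7 plain libraries. The log2 fold change was -1.91 ± 0.39 (SE, n = 3 and 8; edgeR adjusted p = 0.0199), and -2.04 without control 5. Lars2, the mitochondrial leucyl-tRNA synthetase gene within which rRNA-derived reads are known to align, likewise had control 5 between S1 and the other S libraries, with 252, 136 and 140 CPM in S1, S2 and S6, 186 in control 5 and 723 to 908 in the other plain libraries. Rn7sk, the 7SK RNA that restrains transcription elongation, had -1.63, and Gm26917, a noncoding neighbour of CT010467.1, had -0.97. Gm23935, a short locus on chromosome 16 annotated as a miRNA, had -2.26, with 636, 254 and 280 CPM, 391 in control 5 and 1796 to 2492 in the others. Malat1, a long noncoding RNA kept in the nucleus, stood at 640, 626 and 546 CPM, 618 in control 5 and 1077 to 1740 in the others (-1.02 ± 0.23). In the fits that left out S1, or S2, 0 of these 4 list members were called in edgeR, with medians of -2.30 and -1.54 (4 and 2 in DESeq2). Without S6, or without any of controls 1, 2, 3, 6 or 7, 2 of the 4 were called.

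Genes of the mitochondrial genome, which encode subunits of the respiratory chain, moved the other way. With 11 libraries 0 of 12 were called (median 0.65). Without control 5, 6 of 12 were called higher (median 0.85), where 2.4% of all genes were. Control 5 lay above every other plain library in 10 of the 12, a count that lacks a background, as the share over all genes was not counted. Control 5 was left out partly because of its values in these genes, and that choice by itself raises their difference. The 6 calls and the values without control 5 are therefore only a description, for which 2.4% is no independent background. mt-Nd6, a subunit of complex I, stood at 743, 974 and 764 CPM in S1, S2 and S6, 887 in control 5 and 341 to 562 in the others. Its log2 fold change was 0.78 (edgeR adjusted p = 0.0976), and 0.97 without control 5 (edgeR adjusted p = 0.00534). mt-Co2, a subunit of cytochrome oxidase, stood at 73.8, 79.2 and 57.5 CPM, 114 in control 5 and 24.1 to 39.8 in the others, so control 5 exceeded every S library. mt-Co3, mt-Atp6, mt-Nd3 and mt-Nd4 were the other calls without control 5. As a share of the library total, mitochondrial genes took 2.23% ± 0.30 (SD, n = 3) in S and 1.56% ± 0.41 (SD, n = 8) in plain libraries (exact permutation test over all splits, two-sided p = 0.0485, 0.194 adjusted over 8 measures). rRNA-like genes took 0.124% ± 0.061 (SD, n = 3) against 0.482% ± 0.144 (SD, n = 8) (exact permutation p = 0.0242, adjusted 0.194). None of the 8 library measures passed after adjustment, and the smallest p this test allows is 0.0121.

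**Figure D4:**
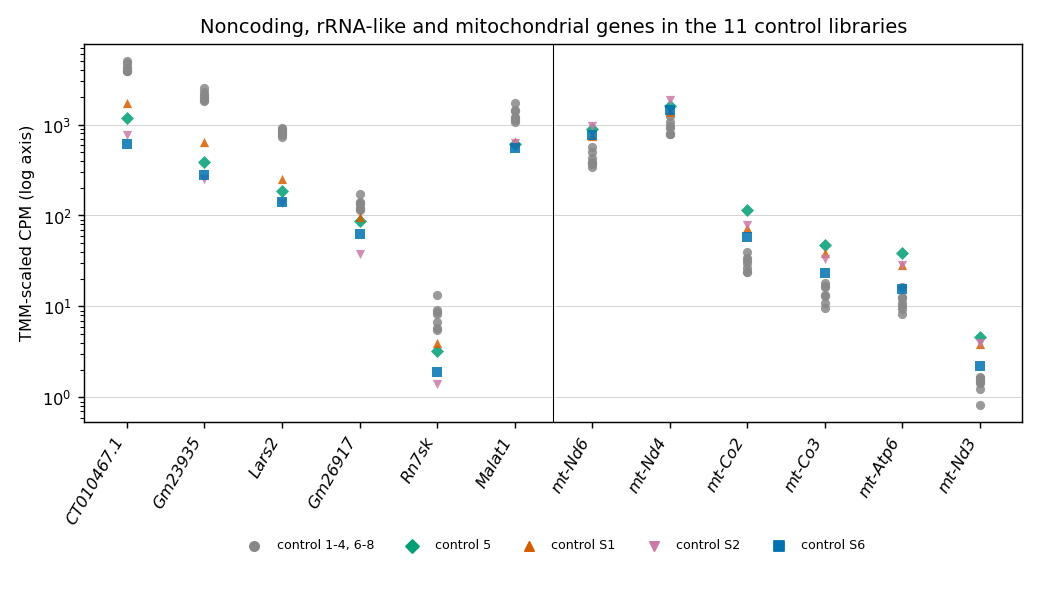
CPM on a log axis of 6 rRNA-like or noncoding genes (left of the line) and 6 mitochondrial genes (right) with 1 point per control library. Control 5 (green diamonds) lies outside the range of the other 7 plain libraries in all 12 genes, on the side of the S libraries, and S6 lies within that range in mt-Atp6.

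Where control 5 and S6 fall was measured with fits that left each out. A position of 0 is the plain mean and 1 the S mean of log2 CPM over the genes called without that library. Control 5 lay at a median of 0.81 over the 150 non-coding genes called lower without it and was nearer the S mean in 114 of them. Over the 366 protein-coding genes called higher its median was 0.37, nearer S in 122, and over the 6 mitochondrial genes 1.47. Over the 15 platelet genes control 5 lay at 0.50, nearer S in 7. Over the 99 protein-coding genes called lower it lay at 0.58, nearer S in 53. S6 lay at 0.71 over 67 non-coding genes called lower without it, nearer S in 53, but at 0.22 over 642 protein-coding genes called higher and at 0.21 over the 15 platelet genes, nearer S in 0. The other plain libraries lay between -0.16 and 0.05 for non-coding lower genes. Control 8 lay at 0.66 over 129 protein-coding genes called lower. Control 5 and S6 were singled out after their values were seen, and no test compares these classes of genes.

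**Figure D5:**
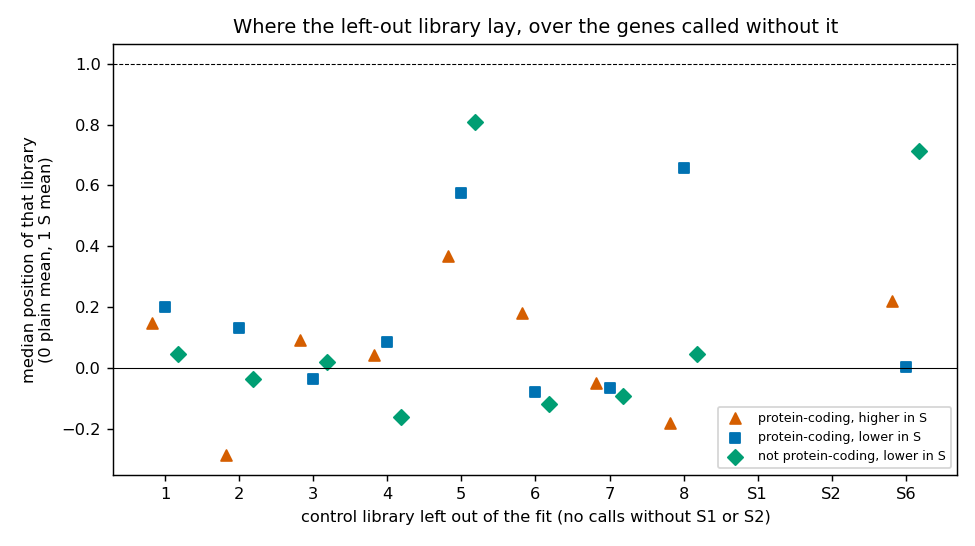
Median position of each library left out of the fit, on a scale where 0 is the plain mean and 1 the S mean, for 3 classes of genes called without it. Control 5 lies at 0.81 and S6 at 0.71 for non-coding genes lower in S, against 0.37 and 0.22 for protein-coding genes higher in S, and no gene was called without S1 or without S2.

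Protein-coding genes called lower were 42, and 30 of those with at least 1 CPM changed by less than 2-fold. Erfe, erythroferrone, the hormone by which red cell precursors lower hepcidin, stood at 1.38, 1.84 and 1.80 CPM in S1, S2 and S6 against 2.42 to 8.74 CPM (median 4.72). The groups did not overlap, with a log2 fold change of -1.60 ± 0.35 (SE, n = 3 and 8; edgeR adjusted p = 0.0258). It was the 1 call among 12 erythropoietin and iron genes, beside 0.666% of all genes called lower. Rps29, a protein of the small ribosomal subunit, stood at 630, 450 and 754 CPM against 906 to 1582 (-0.97). Rpl39 of the large subunit had -0.53. They were 2 of 5 ribosomal protein genes called lower among 95 tested (median -0.18), beside 0.301% of all protein-coding genes called lower, each of which may share reads with its pseudogenes. Atp5k, a subunit of ATP synthase, had -0.87, Fmc1, an assembly factor of that enzyme, -0.78, and Snrpg, a core protein of spliceosomal particles, -0.59. The replication histone gene Hist2h4 stood at 0.838, 0.736 and 1.38 CPM against 1.45 to 5.91 (-1.87). Mapkapk5, a stress kinase, had -1.33, Metrn -1.32, Artn, a neurotrophic ligand, -0.86, and Clcn2, a chloride channel, -0.71. The 2 predicted loci Gm49322 and Gm10269 had -1.39 and -1.38. Median annotated length was 2524 bases for the 42 protein-coding genes called lower, 4975 for the 313 called higher and 4340 for the 13934 tested.

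The same ID contrast can be drawn in the gluten-free libraries, which share no library with the control contrast. In a fit over all 20 libraries, 6091 of 18362 genes (33.2%) were called there between 5 S and 4 plain IDs, 3764 higher (20.5%) and 2327 lower (12.7%). The difference between the control and the gluten-free contrast was called for 4545 genes (24.8%), 1720 higher (9.37%) and 2825 lower (15.4%). No member of the platelet list was called there (0 of 15, median -0.10; for Thbs1 -0.04, edgeR adjusted p = 0.918), and in 14 of 15 the difference between the contrasts was called. On the scale of that fit the list's mean log2 CPM was 6.06 in plain control, 7.44 in S control, 7.07 in plain gluten-free and 6.93 in S gluten-free libraries. Thbs1 averaged 173 ± 39.1 CPM (SD, n = 8), 549 ± 262 (SD, n = 3), 345 ± 52.6 (SD, n = 4) and 335 ± 120 (SD, n = 5) in the same order. The rRNA-like list was lower in S in gluten-free libraries as well, with 4 of 4 called (median -1.21), and Lars2 had -1.42. All 12 mitochondrial genes were called higher there (median 1.23). Of the erythroid membrane genes, 19 of 19 were called higher in S gluten-free libraries (median 1.37), against 0 of 19 in control, and the difference was called for 17. Erfe went in opposite directions, with -1.60 in control and 1.89 in gluten-free libraries (edgeR adjusted p of the difference = 0.00163). Of the 439 control calls, 142 had the same sign in the gluten-free contrast, 55 were called there with that sign and 63 with the opposite sign, and these counts cover genes selected in the control contrast.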

How the data were processed

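The values are raw counts per gene of 20 whole spleen libraries, deposited by the authors unscaled. The submitters' processing notes name CASAVA, HISAT2 2.0.5 (GRCm38, mm10) and featureCounts 1.5.0. How strand and multiply aligned reads were counted, and on which annotation release, is not given in the sources used here, so near-identical and overlapping genes are less certain. Of 54532 genes, 31088 had a count in the 11 control libraries and 17114 passed edgeR's default filter. Two-sided quasi-likelihood tests in edgeR 4.0.16 (R 4.3.3) used TMM scaling and Benjamini-Hochberg adjustment over all tested genes. Differences are log2, S minus plain, with standard errors. Log2 CPM used a prior count of 2.

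Samples were grouped by the title. Gene lists (55) and members were chosen with earlier results of these data known. Named genes were the 12 highest and 12 lowest fold changes among protein-coding genes of at least 1 CPM called with and without control 5, up to 4 members per list and a few fixed genes. Alternatives used limma 3.58.1, DESeq2 1.42.0, other scalings and filters, and left-out libraries. The fit was tested on simulated data: 1 unchanged gene was called, and 22% of genes changed 1.5-fold, 68% at 2-fold, 100% at 3-fold and 98% at 4-fold were recovered. Genes were drawn independently there, with changes only in genes of at least 1 CPM. These rates therefore do not cover genes below that level or libraries in which many genes shift together. No library pair of 31 agreed within sampling noise (chi-square per degree of freedom 6.56 to 83.5). Shares were compared with an exact permutation test (scipy 1.17.1). Promoters came from RefSeq (GRCm38.p6). Biotypes and coordinates are those in the deposited file. Results of some genes are not reported here.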

Additional observations from a re-analysis of the deposited data

Results flagged for a closer look

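Outliers among the 8 plain control libraries were sought in 150 values (library measures, genes and list means), and 23 stood apart by Dixon's criterion. For independent values not chosen from the data, chance gives about 1 in 20, or 8. Here some genes were named from their values, and lists and shares overlap with single genes, so that number is only a guide. Of the 23, control 5 accounted for 11 and control 8 for 8. In control 5 the rRNA-like share was 0.1409% against 0.476 to 0.599% in the others, Lars2 was at 186.3 CPM, Gm23935 at 390.7, CT010467.1 at 1191 and Malat1 at 617.9, all low, and the mean log2 CPM of the rRNA-like list was 6.487. High in control 5 were Esam (36.89 CPM), mt-Nd3 (4.588), mt-Co3 (47.77), mt-Co2 (113.7) and mt-Atp6 (39.16).

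Control 8 was low in red cell and dividing-cell genes: mean log2 CPM was 8.783 for erythroid membrane, 8.663 for haem synthesis, 7.607 for erythroid transcription factor, 6.744 for DNA replication and 7.02 for mitosis genes. Tfr2, a sensor of iron, was at 49.3 CPM and Rab27b at 13.76, both low, and the circadian list at 3.185 was high. In control 2 Elane was at 13.42 CPM and the primary granule list at 2.208, both low. In control 4 the pancreatic enzyme gene Cela1 was at 117.9 CPM against 5.69 to 12.4, and the fatty acid oxidation list at 5.37 was high.

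The S minus plain difference in control libraries departed from that in gluten-free libraries, by the interaction test in edgeR, for 19 of the 24 genes named by fold change. It did so for 24.8% of all genes and for 345 of the 439 control calls, so the count is not particular to these genes. The interaction estimates on the log2 scale were 1.789 for Slc6a4, 1.762 for Mmrn1, 1.8 for Gp1ba, 1.798 for Pls1, 1.666 for Rab27b, 1.98 for Cyp2b10, 1.659 for Ppbp, 1.88 for Nlrp6 and 1.763 for Tuba8. They were 2.202 for Lgr5, 1.768 for Ly6g6c and 1.932 for Arpp21. Negative estimates were -3.504 for Erfe, -2 for Clcn2, -1.709 for Artn, -1.475 for Hist2h4, -1.459 for Gm10269, -1.044 for Mapkapk5 and -0.87 for Atp5k. The genes were chosen on the control contrast, which is part of each estimate.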

How the results depend on the processing

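No called gene or count changed direction under any alternative run. The count of calls (439: 325 higher, 114 lower) ranged from 0 to 966 when 1 library was left out (0 to 694 higher, 0 to 272 lower). The 0 came without S1 or S2, and the largest without S6. Without control 5, 249 genes were lower, and without control 8, 207. With 2 libraries out, 1508 were called without control 8 and S6 (935 higher, 573 lower) and 1241 without control 5 and S6 (809, 432). DESeq2 called 919 (573, 346), and 240 (131 higher) without S1 and 216 (155, 61) without S2. limma-voom called 49 lower, and with quality weights 5032 in all (2722, 2310). A mean of at least 1 CPM left 66 lower, the fit over 20 libraries gave 216 lower, and an adjusted p under 0.01 left 28, all higher, and 0 lower. RLE and upper quartile scaling gave 423 and 411 calls. The replicate block over the shared numbers 1, 2 and 6 gave 0 calls, 0 higher and 0 lower (1845 at an unadjusted p under 0.05), as did the same 6 libraries without it (2229). Same-numbered libraries did not deviate together (correlations 0.04, -0.13 and -0.10), so the numbers were not taken as pairs. The haemoglobin share difference, 1.09 percentage points and not past the test, ranged from -0.447 (without S1) to 3.61 (without S6), and that of immunoglobulin, 0.0586, from -0.0132 (without S6) to 0.0959 (without S2). In the 91 named genes, 69 calls were lost without S1 and 69 without S2, but 9 without S6. Of the 439 calls, 424 remained without control 5 and 389 without S6. The causes were not tested. At this number of libraries 22% of simulated 1.5-fold changes were recovered. No gene of the 439 lost its sign in any setting in which it was tested.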
